A study of Mus musculus with 5 samples.

Results

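Goblet cells of the mouse colon were taken from 1 single-cell RNA library of colon tissue. A cell counted as a goblet cell when it had at least 300 detected genes, at most 20% of its unique molecular identifiers (UMIs, each standing for 1 captured RNA molecule) in mitochondrial genes, at least 3 UMIs of the epithelial genes Epcam, Krt8 and Krt18 together, and at least 2% of its UMIs in the 5 mucus genes Muc2, Agr2, Spink4, Zg16 and Tff3. It also had to hold under 5 UMIs of the endocrine genes Chga and Chgb and at most 1 UMI of Ptprc, the leukocyte gene CD45. This left 333 cells of the 2926 colonic barcodes and of 16535 barcodes in all 5 libraries. The cells were thus chosen by the measured levels of the 5 mucus genes, whose values are given below as a description only.

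The series set out to relate stromal cells that carry Gnai1 to the differentiation of goblet and Paneth cells and to c-Jun. It sampled duodenum, jejunum, ileum, colon and rectum of mice, with 1 single-cell library each. The tissue was described as holding epithelial, mesenchymal and immune cells, and sorting kept the cells that excluded the death stain propidium iodide. The labels used here name no strain, age, sex, genotype or treatment and no number of animals, and all 5 libraries are described alike apart from the segment. With 1 library per segment there is no replicate, so no test was made, and library and segment cannot be told apart.

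Goblet cells are secretory epithelial cells that make the mucus gel covering the gut wall. Their main product is the mucin Muc2, which is folded and joined into dimers in the endoplasmic reticulum, decorated with sugars in the Golgi, packed in granules and released together with lectins, trefoil peptides and other small proteins. In the colon, goblet cells at the crypt base and those nearer the lumen are known to differ in the genes they use, and Reg4 with Kit is known as a mark of the deep crypt secretory cells.

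The libraries held 41953568 to 65546664 UMIs on 2884 to 4355 barcodes. By the same rule the duodenum held 50 goblet cells, the jejunum 31, the ileum 262 and the rectum 215. Goblet cells were 29.2% of the 1140 epithelial cells of the colon (exact binomial interval 26.6 to 31.9%), against 24.97% in the rectum, 22.96% in the ileum, 4.47% in the duodenum and 3.81% in the jejunum. All intervals here cover counting error only. Pairs of libraries shared 0 to 5 cell barcodes, and 1 colonic goblet barcode was also present in another library. Among the set share of barcodes with the highest doublet scores were 4 of the 333 cells, and these were kept because the rule states no such step.

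The colonic goblet cells held 10583058 UMIs, and levels are given as counts per 1000000 UMIs (CPM), taken of the UMIs summed over a group of cells. A cell held 512 UMIs at the lowest, 27313 at the median and 127796 at the highest. The median cell had 5028 detected genes and 8.42% mitochondrial UMIs, and 17 cells had under 1000 UMIs. The mucus genes took 7.42% of the UMIs of the median cell and 26.7% at the highest. Just outside the limit, 16 cells with 1.5 to 2% mucus UMIs had a median of 58311.5 UMIs. Just inside it, 19 cells with 2 to 2.5% had a median of 46518 UMIs.

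The label of goblet cells was compared with markers that the rule did not use. The marker lists were chosen with earlier results of these data known, so this comparison is not an independent check. All 14 such goblet markers were past 2-fold higher than in the 759 other epithelial cells of the colon, against 9.04% of all genes tested. Their median log2 fold was 4.71. Best2 among them had 215 UMIs in goblet cells and 4 in the others, and could be tested only because of the former. Markers of other cell types were low: T and NK cell markers summed to 0.567 CPM, stromal markers to 3.78 CPM, endothelial markers to 1.98 CPM and tuft cell markers to 4.91 CPM. Of 9 Paneth cell markers, 6 were at 0, and the other 3, Mmp7, Ang4 and Itln1, were past 2-fold higher than in the other epithelial cells. Ang4 had 292 UMIs in goblet cells and 10 in the others, and Itln1 had 329 and 12. Both could thus be tested only because of their UMIs in goblet cells. The Paneth list summed to 62.8 CPM against 1.20. Myeloid markers summed to 115 CPM, nearly all of it C1qa, and B and plasma cell markers to 3222 CPM, nearly all of it from 1 barcode, and both are taken up below. The colonocyte list summed to 7094 CPM in the goblet cells and 25442 CPM in the other epithelial cells. Its most abundant gene, the carbonic anhydrase Car1, had a UMI in 96.4% of goblet cells and also in 91.0% of the 278 colonic immune cells, at median depths of 27313 and 3330 UMIs. The share of the Car1 UMIs in goblet cells that came from free RNA was not tested.

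Muc2 stood at 23848 CPM in the colonic goblet cells (exact Poisson interval 23755 to 23942) and had a UMI in 100% of them. The gene lies on chromosome 7 at 141690340 to 141754691 (GRCm38.p6, as are all positions here). Per cell it ranged from 2046 CPM through a median of 22369 to 106544 CPM. In the other epithelial cells it was at 524 CPM. In the immune cells, which should lack it, it was at 108 CPM, with a UMI in 36.0% of cells. After each cell was thinned to 2000 UMIs, which left 304 goblet and 262 immune cells, these shares were 100% and 21.8%.

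The other 4 genes of the rule were uneven among the cells. Agr2, a disulfide isomerase of the endoplasmic reticulum needed for mucin production, was at 12780 CPM with a per-cell median of 11411. Spink4, a small Kazal-type protease inhibitor secreted by goblet cells, was at 24645 CPM with a median of 15421. Zg16, a lectin that binds Gram-positive bacteria, was at 4351 CPM in sum, but its median cell had 12 CPM and its highest 112424. Tff3, the trefoil peptide of goblet cells, was at 2075 CPM in sum with a median of 90 CPM. Zg16 had a UMI in 50.8% of the cells and Tff3 in 65.2%, against 15.1% and 10.1% of immune cells, while Agr2 had one in 99.7% and Spink4 in 99.4%.

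A pair of markers at either end described the states of these cells. Retnlb, the secreted resistin-like molecule beta, lies on chromosome 16 at 48816856 to 48818892 and was at 19944 CPM (19859 to 20030). Reg4, a secreted C-type lectin, lies on chromosome 3 at 98222138 to 98236748 and was at 6578 CPM. Plet1, a surface protein held by a lipid anchor, lies on chromosome 9 at 50494525 to 50505639 and was at 795 CPM (778 to 813). Nxpe2, of the neurexophilin and PC-esterase family, lies on the same chromosome at 48318003 to 48353449 and was at 192 CPM. Plet1 overlaps the model Plet1os and Nxpe2 overlaps Nxpe4, and the strand setting of the counting is not given in the sources used here.

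Retnlb had a UMI in 99.7% of goblet cells and 27.0% of immune cells, and 98.7% and 16.0% after thinning. Reg4 had one in 62.8% of goblet cells against 13.3% of immune cells (45.1% and 7.6% thinned). For Plet1 the shares were 68.8% and 1.8% (54.6% and 0.8% thinned), and for Nxpe2 40.8% and 3.2% (23.7% and 0.8%). Retnlb was thus almost universal, and the other 3 markers divided the cells.

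Promoters of 3 of these genes and of Muc2 are shown because the genes separate the states or define the lineage. Each sequence runs from 250 bases before to 50 bases after the annotated start (RefSeq, GRCm38.p6), and capitals mark matches to the motifs searched on both strands. The start used for Nxpe2 lies inside the span given above and not at its end, so that window is not the one at the outer end of the gene.
Reg4 (chr3:98221906-98222205, plus strand): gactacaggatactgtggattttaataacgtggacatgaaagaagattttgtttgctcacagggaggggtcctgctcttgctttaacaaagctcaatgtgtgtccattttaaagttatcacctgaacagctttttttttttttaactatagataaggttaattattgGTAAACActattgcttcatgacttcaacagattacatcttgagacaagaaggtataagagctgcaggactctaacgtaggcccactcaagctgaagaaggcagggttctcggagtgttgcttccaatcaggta
Plet1 (chr9:50494275-50494574, plus strand): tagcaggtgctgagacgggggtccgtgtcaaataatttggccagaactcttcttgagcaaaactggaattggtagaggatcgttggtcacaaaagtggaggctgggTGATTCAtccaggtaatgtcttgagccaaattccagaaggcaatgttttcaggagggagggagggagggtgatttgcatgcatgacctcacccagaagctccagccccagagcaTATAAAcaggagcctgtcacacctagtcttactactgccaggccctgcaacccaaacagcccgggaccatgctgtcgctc
Nxpe2 (chr9:48340849-48341148, minus strand): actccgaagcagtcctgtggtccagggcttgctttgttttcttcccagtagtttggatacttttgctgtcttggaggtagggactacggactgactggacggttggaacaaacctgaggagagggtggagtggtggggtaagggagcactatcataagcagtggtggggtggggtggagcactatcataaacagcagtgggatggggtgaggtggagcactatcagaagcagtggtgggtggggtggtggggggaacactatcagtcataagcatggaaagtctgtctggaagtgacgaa
Muc2 (chr7:141690090-141690389, plus strand): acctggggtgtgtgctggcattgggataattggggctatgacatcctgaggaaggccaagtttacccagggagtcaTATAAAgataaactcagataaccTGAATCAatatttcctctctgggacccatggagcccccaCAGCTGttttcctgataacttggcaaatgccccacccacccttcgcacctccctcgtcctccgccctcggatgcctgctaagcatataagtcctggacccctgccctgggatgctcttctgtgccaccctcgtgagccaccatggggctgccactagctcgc

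The Plet1 promoter held the AP-1 motif TGANTCA 144 bases before the start and the TATA motif TATAAA 30 bases before it. The Muc2 promoter held the AP-1 motif 151 bases, the E-box CAGCTG 112 bases and the TATA motif 174 bases before its start. The Reg4 promoter held the forkhead motif TNTTTAC on the minus strand 83 bases before the start. The Nxpe2 promoter matched none of the 5 motifs searched, and none of the 4 matched the CDX motif TTTATNG. Of 32851 promoters of the same length, 7.81% held the AP-1 motif, 16.3% the E-box, 12.4% the forkhead motif, 10.9% the CDX motif and 13.6% the TATA motif. The CDX motif can overlap the TATA motif on the opposite strand. These matches are descriptions of the letters and not of binding sites.

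By plain UMI majority the Retnlb and Reg4 pair prevailed nearly everywhere. Of the 333 cells, 324 held more Retnlb and Reg4 than Plet1 and Nxpe2 UMIs (97.3%, exact binomial interval 94.9 to 98.8%), 7 held fewer and 2 were tied. The first pair had 280691 UMIs in sum and the second 10450, a ratio of 26.9. Yet 238 cells had at least 1 UMI of Plet1 or Nxpe2 and 95 had none. A second score, chosen after the data were seen, therefore divided each pair's UMIs in a cell by that pair's sum over all members before the shares were compared. By this pair-balanced score 160 cells lay on the Retnlb and Reg4 side (48.0%) and 173 on the Plet1 and Nxpe2 side. Scaling both pairs to the same sum itself draws the share towards an even split.

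A side is a cut of a score, and whether the cells form separate types was not tested. In 5 equal bins from the Plet1 and Nxpe2 end the cells numbered 89, 71, 29, 16 and 128, with 29 between 0.4 and 0.6. Reg4 reached 1000 CPM in 152 cells and Plet1 with Nxpe2 in 140, but only 10 cells reached it for both and 51 for neither. Over the 333 cells Spearman's rho was -0.74 between Reg4 and Plet1, 0.60 between Plet1 and Nxpe2, 0.52 between Retnlb and Reg4 and -0.15 between Retnlb and Plet1. These cells share 1 library and differ in depth, and the values are descriptions. Reg4 against Plet1, rather than Retnlb, carried the opposition.

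**Figure D1:**
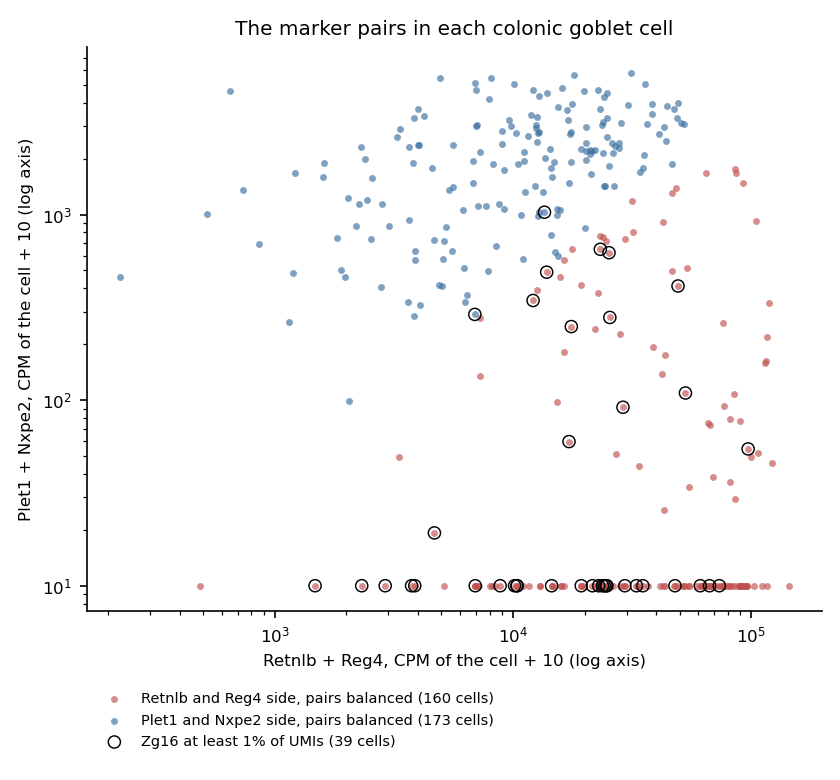
Each point is 1 of the 333 colonic goblet cells. The log axes give Retnlb with Reg4 and Plet1 with Nxpe2 in CPM of the cell plus 10, colours give the side by the pair-balanced score, and rings mark the 39 cells with at least 1% of UMIs in Zg16, of which 37 lie on the Retnlb and Reg4 side. Cells without Plet1 or Nxpe2 lie along the lower edge.

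The sides were similar in depth. The median cell held 29092.5 UMIs on the Retnlb and Reg4 side and 25964 on the Plet1 and Nxpe2 side, with 9.08% and 7.99% mitochondrial UMIs and 8.58% and 6.98% mucus UMIs. Of 9745 genes with at least 50 UMIs over both sides, 445 (4.57%) were past 2-fold, 190 of them (1.95%) higher on the Retnlb and Reg4 side and 255 (2.62%) higher on the Plet1 and Nxpe2 side. By the plain majority, with 7 cells on one side, 1687 of 9744 genes (17.3%) were past 2-fold, 12.3% higher on the larger side and 4.97% on the smaller. Without the cells high in Jchain that split was 858 and 990 genes, in place of 1203 and 484. The pair-balanced score is used below.

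The mucus genes did not all differ in 1 direction between the sides. Of 7 core mucus genes with enough UMIs, 5 were past 2-fold higher on the Retnlb and Reg4 side, against 1.95% of all genes, and Muc2 alone was past 2-fold higher on the Plet1 and Nxpe2 side. The rule chose cells on the sum of 5 of these genes, so a cell low in one had to hold more of another.

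Muc2 was at 14241 CPM on the Retnlb and Reg4 side and 34744 CPM on the Plet1 and Nxpe2 side, 2.44-fold higher on the latter. Its per-cell medians were 13458 and 41011 CPM, and the cells of both sides overlapped. Agr2 followed it below the 2-fold limit, at 8946 and 17129 CPM. Over the 333 cells Muc2 had a rho of 0.75 with Plet1 and -0.46 with Reg4. Cells with more Plet1 tended to hold more Muc2.

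Spink4 ran the other way, at 38848 and 8537 CPM, 4.55-fold higher on the Retnlb and Reg4 side, with per-cell medians of 36358 and 6524. Tff3 was at 3609 and 336 CPM, and its median cell had 1810 CPM on the first side and 0 on the second. Fcgbp, a large secreted protein linked into the mucus gel, was at 1259 and 68.2 CPM, 18.5-fold higher on the Retnlb and Reg4 side. In Fcgbp 86.2% of cells had a UMI on that side and 31.2% on the other, against 1.44% of immune cells (58.2% and 7.4% after thinning). Tff3 had a UMI in 41.0% of cells of the Plet1 and Nxpe2 side, so it and Fcgbp had none in most cells there, while Spink4 was lower but had a UMI in 98.8%.

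Zg16 and Clca1, a secreted metalloprotease of the mucus, were carried by few cells. Zg16 was at 7420 and 870 CPM, 8.53-fold higher on the Retnlb and Reg4 side. One cell of the Plet1 and Nxpe2 side held 7.89% of all Zg16 UMIs, and without that cell the fold was 53.4. Clca1 was at 508 and 88.7 CPM. Its highest cell, also on the Plet1 and Nxpe2 side, held 12.2% of the UMIs, and without it that side stood at 7.36 CPM, a 69.1-fold difference. The 39 cells with at least 1% of UMIs in Zg16 had 10365 CPM of Tff3, 3709 of Fcgbp, 2297 of Clca1 and 12447 of Muc2. Over all cells the rho between Zg16 and Fcgbp was 0.59.

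**Figure D2:**
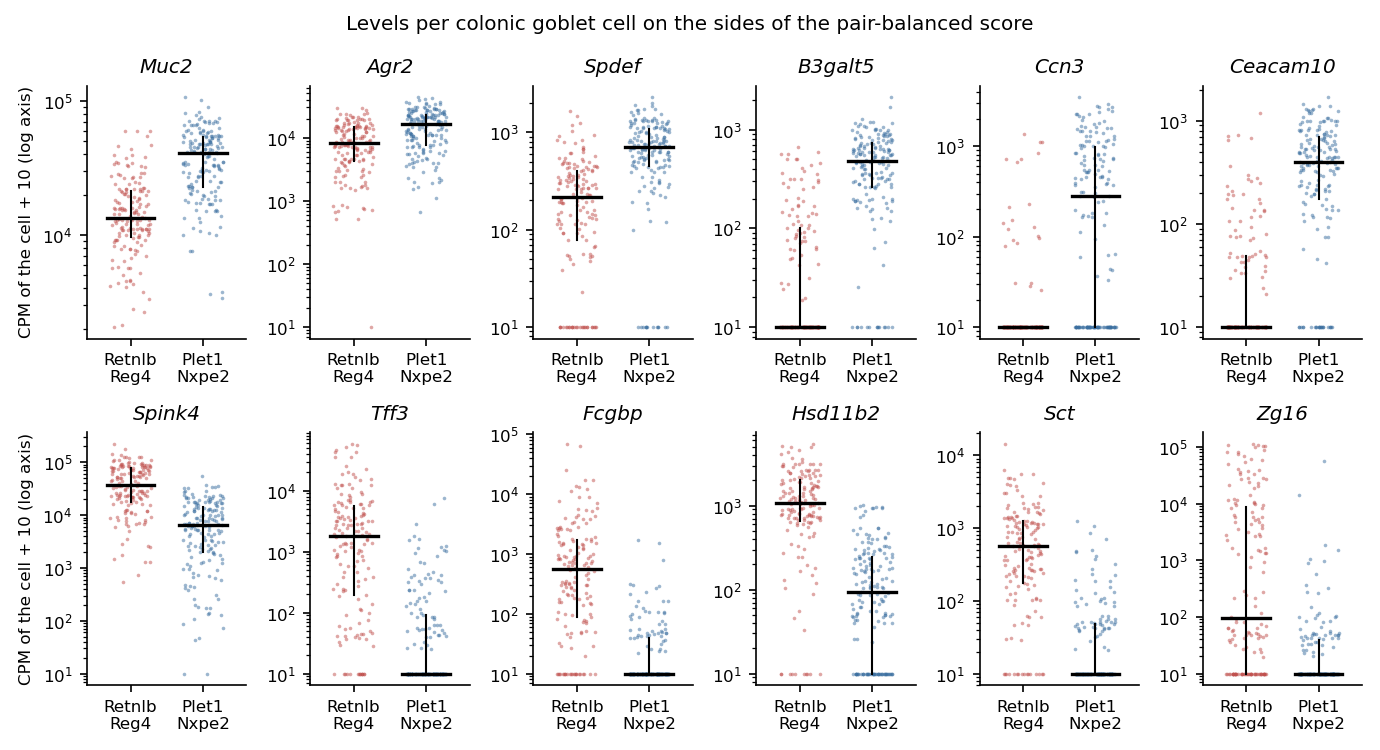
Each point is 1 colonic goblet cell, placed by its side of the pair-balanced score (160 and 173 cells) and by the CPM of the cell plus 10 on a log axis. Horizontal bars are medians and vertical lines run from the first to the third quartile. The upper row shows genes higher on the Plet1 and Nxpe2 side, such as Muc2, and the lower row genes higher on the Retnlb and Reg4 side, such as Fcgbp, and the cells of both sides overlap for each gene.

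Among the known products of goblet cells in the large intestine, Best2 was at 33.6 CPM on the Retnlb and Reg4 side and 5.24 CPM on the other, 6.41-fold apart. Best2 is an anion channel of colonic goblet cells. Kit, a receptor tyrosine kinase, was at 73.1 and 148 CPM, 2.03-fold higher on the Plet1 and Nxpe2 side. Kit had a UMI in 70.6% of cells on the first side and 79.8% on the second, so Reg4 and Kit leaned to different sides here. The Kit fold lay at the limit and was below it in 6 of 13 alternative settings. Mptx1, a mucosal pentraxin, was at 214 and 478 CPM, and its highest cell on the Retnlb and Reg4 side held 11.6% of its UMIs. The Mptx1 fold was below the limit in 3 of 13 alternative settings. Sval1 was low on both sides, at 10.5 and 3.02 CPM.

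Genes outside the mucus lists also separated the sides. Ccn3, a secreted matricellular protein, was at 47.8 and 563 CPM, 11.8-fold higher on the Plet1 and Nxpe2 side, where 107 cells had a UMI against 22 on the other. Ceacam10, of the carcinoembryonic antigen family, was at 65.1 and 423 CPM, in 58 and 150 cells. The calcium channel gene Cacna1h was at 2.13 and 26.8 CPM, in 11 and 71 cells. Ephx4, an epoxide hydrolase family member, was at 3.20 and 28.03 CPM, in 14 and 87 cells. These 4 genes were found in many cells and mostly on the Plet1 and Nxpe2 side. Cacna1h had 12 and 133 UMIs and Ephx4 18 and 139, so both could be tested only through that side.

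Cd177, a surface protein better known from neutrophils, was singled out after its values were seen because it neighbours Ceacam10. It lies on chromosome 7 at 24743983 to 24760334, 16832 bases from Ceacam10 (24777167 to 24784656), with no annotated gene between them. Cd177 was at 73.6 and 355 CPM, 4.82-fold higher on the Plet1 and Nxpe2 side, the same side as its neighbour.

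On the Retnlb and Reg4 side, Sct, the hormone secretin, was at 794 CPM against 49.8 CPM, 15.9-fold higher. It had a UMI in 144 cells of that side and 66 of the other. The enteroendocrine marker list summed to 801 and 65.1 CPM, nearly all of it Sct on the first side. The other member tested, the glucagon gene Gcg, was at 2.67 and 8.87 CPM, past 2-fold in the reverse direction. The rule had removed cells with 5 or more Chga and Chgb UMIs. Hsd11b2, which inactivates glucocorticoids and was named after its values were seen, was at 1138 and 175 CPM, with per-cell medians of 1075 and 84. Rgs16, a regulator of G protein signalling, was at 44.8 and 2.02 CPM, in 87 and 7 cells. Anpep, an aminopeptidase of the cell surface, was at 25.4 and 0.605 CPM, in 70 and 2 cells. Rgs16 had 252 and 10 UMIs and Anpep 143 and 3, so both could be tested only through the Retnlb and Reg4 side.

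C1qa, a chain of the complement component C1q usually made by macrophages, was at 200 CPM on the Retnlb and Reg4 side and 4.23 CPM on the other, 47.3-fold apart. It had a UMI in 96 and 14 cells. With 1126 and 21 UMIs in sum, C1qa could be tested only through the Retnlb and Reg4 side. Its partner C1qb was at 0.356 and 1.01 CPM, and the myeloid adaptor Tyrobp was at 0.189 CPM over all goblet cells. In the immune cells of the same library C1qa had a UMI in 18.0% of cells, against 60.0% of goblet cells on the Retnlb and Reg4 side, at median depths of 3330 and 29092.5 UMIs. After thinning these shares were 16.8% and 27.0%. The other epithelial cells stood at 2.31 CPM. C1qa thus appeared without the myeloid genes that usually go with it.

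Some large folds rested on a single barcode. One cell of the Plet1 and Nxpe2 side held 93.6% of the Jchain UMIs, 94.6% of Igha, 96.4% of Ly6c2, 91.7% of Cd52 and 89.8% of Mzb1, all genes of plasma cells or other leukocytes. With it the B and plasma cell list summed to 221 CPM on the Retnlb and Reg4 side and 6626 CPM on the other, and without it Jchain was at 25.1 and 19.2 CPM. A cell of the Retnlb and Reg4 side held 94.2% of Fabp6, the ileal bile acid binding protein, and without it Fabp6 was at 3.09 and 3.83 CPM. Meg3 was found in 5 cells, 1 of which held 54.5% of its UMIs. Of Aqp8 1 cell held 43.8% and of Aqp4 43.3%, and both genes were below 2-fold without it. Part or all of these genes' differences is thus a difference of single barcodes.

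The machinery that builds mucin sugars was set against the other colonic epithelial cells, a comparison in which the mucus genes fixed the groups. Of 11638 genes tested there, 17.3% were past 2-fold, 9.04% higher in goblet cells and 8.3% lower. With totals that leave out the genes of the rule and of the states, 1270 genes were higher and 760 lower, in place of 1052 and 966. Of 33 glycosylation and sulfation genes 22 were past 2-fold higher in goblet cells and 1 lower, with a median log2 fold of 2.12 against -0.06 over all genes. B3gnt6, which makes the core 3 branch of mucin sugars, was at 84.9 CPM against 1.66. C1galt1, which makes core 1, was at 339.5 CPM against 61.0. Gcnt3, which adds the branches of core 2 and core 4, was at 452 CPM against 149. Galnt3 and Galnt12, which start the sugar chains, were at 161 and 227 CPM against 37.2 and 84.6. Papss2, which makes the donor for sulfation, was at 264 CPM in goblet cells and 527 CPM in the others.

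Between the sides the same list divided, 2 genes past 2-fold on the Retnlb and Reg4 side and 7 on the Plet1 and Nxpe2 side of 31. The shares of all genes were 1.95% and 2.62%. The list's median log2 fold was -0.48 against -0.03 over all genes. B3galt5, a galactosyltransferase, was at 85.0 and 456 CPM, 5.37-fold higher with Plet1 and Nxpe2, and 68 and 159 cells had a UMI. B3gnt7 was at 18.0 and 72.4 CPM and Gcnt1 at 8.36 and 25.8 CPM. St6galnac6, a sialyltransferase, was at 189 and 460 CPM, and Fut2, which makes the blood group H sugar, at 104 and 225 CPM. The sialyltransferases St3gal4 and St3gal6 were the others on that side. St3gal1 ran the other way at 37.0 and 8.87 CPM, as did Papss2 at 399 and 112 CPM. Cmah, which turns one sialic acid form into another, was outside the list and stood at 75.4 and 389 CPM. St6galnac6, Fut2 and Cmah each overlap another annotated model.

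The 3 close copies Gal3st2, Gal3st2b and Gal3st2c, sulfotransferases on chromosome 1, are uncertain because their reads may be split or discarded. Gal3st2b was at 22.8 CPM on the Retnlb and Reg4 side, in 65 cells, and had no UMI on the other, at least 37.6-fold apart. Gal3st2 was at 9.42 and 1.41 CPM, 6.68-fold apart. Gal3st2c held the most UMIs of the 3, with 1187 on the larger side by plain majority and 1 on the smaller. On the pair-balanced sides Gal3st2b held 128 and 0 UMIs and Gal3st2 53 and 7. By that score the fold of Gal3st2c towards the Retnlb and Reg4 side was below that of Gal3st2. The largest fold of the 3 thus belongs to a copy with few of their UMIs.

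Most protein folding genes were higher in goblet cells, with 23 of 34 past 2-fold higher than in the other epithelial cells and 0 lower. Of all genes tested there, 9.04% were higher and 8.3% lower. The endoplasmic reticulum sensor Ern2 was at 132 CPM against 9.64, the chaperone Hspa5 at 1227 against 575 and the factor Xbp1 at 365 against 129. Between the sides 1 of 34 was past 2-fold, against 4.57% of all genes. It was the oxidase gene Ero1lb, at 4.98 and 12.5 CPM. The list's median log2 fold of -0.51 lay towards the Plet1 and Nxpe2 side, where Hspa5 was at 1490 CPM against 996.

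Of 17 transcription factors of the secretory fate, 11 were past 2-fold higher in goblet cells and 0 lower, against 9.04% and 8.3% of all genes. Atoh1, which starts the secretory lineage, was at 220 CPM against 9.8 and nearly equal on the sides, at 235 and 204 CPM. Spdef, a factor of goblet cell maturation, was at 465 CPM against 17.0, and at 246 and 713 CPM on the sides, 2.90-fold higher with Plet1 and Nxpe2. Bhlha15, a factor of secretory cells, was at 3.56 and 12.5 CPM and could be tested only through its UMIs on the Plet1 and Nxpe2 side. Creb3l1 and Creb3l4 were at 391 and 117 CPM against 57.8 and 7.02. Of these genes only Spdef and Bhlha15 were past 2-fold between the sides, against 4.57% of all genes.

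Of 9 Notch genes 3 were past 2-fold higher in goblet cells, the ligands Dll1 and Dll4 and the modifier Lfng. The receptors Notch1 and Notch2 were past 2-fold lower. The shares of all genes were 9.04% higher and 8.3% lower. Dll1 was at 16.3 CPM against 2.97, and at 24.4 and 7.26 CPM on the sides. Jag1, another ligand, was at 8.71 and 3.63 CPM. Both ligands were past 2-fold higher on the Retnlb and Reg4 side, of 7 Notch genes tested, against 1.95% of all genes. As a mean of each cell's fraction the log2 fold of Jag1 turned to -0.53 and that of Dll1 was 0.57 in place of 1.75.

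Granule exocytosis genes were past 2-fold higher in goblet cells for 10 of 15, against 9.04% of all genes, with a median log2 fold of 1.48. Syt7, a calcium sensor of exocytosis, was at 94.9 CPM against 3.90, and Rab3d, a granule GTPase, at 178 against 25.6. Between the sides Syt7 was at 63.3 and 131 CPM and Sytl4 at 15.1 and 33.3 CPM, while Scin, which severs actin, was at 81.6 and 17.5 CPM. The fold of Syt7 was below the limit in 4 of 13 alternative settings and that of Sytl4 in 1 of 12. The median log2 fold of 17 signal receptors between the sides was 0.29, towards the Retnlb and Reg4 side. Yet 2 were past 2-fold, both higher on the Plet1 and Nxpe2 side, against 2.62% of all genes. They were Egfr, at 17.2 and 37.9 CPM, and the muscarinic receptor Chrm1, at 11.9 and 29.2 CPM, and Egfr was below 2-fold in 2 of 12 alternative settings.

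No gene of 21 in the cell cycle list and none of 20 immediate early genes was past 2-fold between the sides, and none of 11 genes of c-Jun, its kinases and G alpha subunits. Over all genes 4.57% were past it, so counts of 0 in lists of this size lie near the background. Jun was at 1399 and 1101 CPM on the sides, 1259 CPM in all goblet cells and 1150 CPM in the other epithelial cells. Gnai1 was at 1.80 CPM in goblet cells and Gnai2 at 141 CPM. Cells with at least 2 UMIs of Mki67 and Top2a, genes of dividing cells, were 33.1% of the Retnlb and Reg4 side, 21.4% of the other side and 40.8% of the other epithelial cells. After thinning to 2000 UMIs the sides were close, with a Mki67 UMI in 11.3% and 11.7% of cells and a Top2a UMI in 9.93% and 9.82%.

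**Figure D3:**
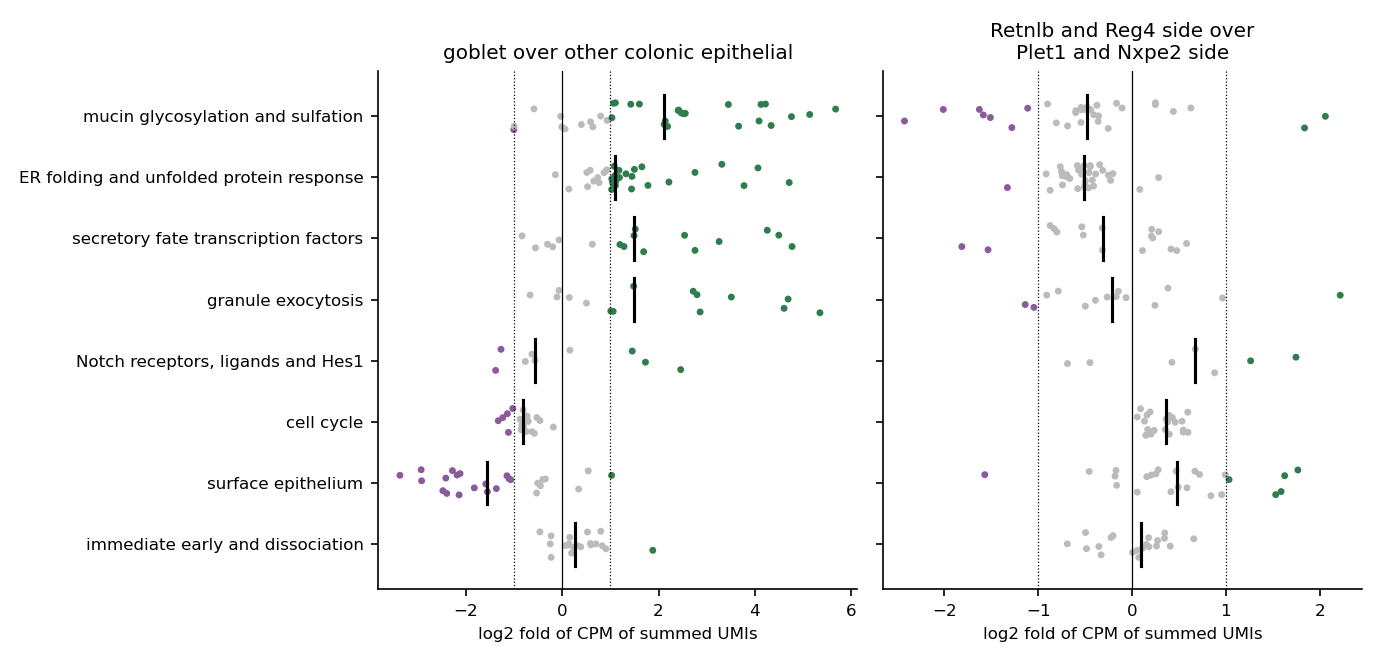
Each point is a gene of the list named at the left, placed by the log2 fold of CPM in colonic goblet cells over other colonic epithelial cells (left) and in the Retnlb and Reg4 side over the Plet1 and Nxpe2 side (right). Thick bars are list medians, dotted lines mark 2-fold, and green and violet points lie past it in either direction. The glycosylation list has a median of 2.12 on the left and -0.48 on the right.

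Surface epithelial genes varied with the mucus share. Their 25 genes summed to 11197 CPM in goblet cells, 13084 on the Retnlb and Reg4 side and 9056 on the other, against 35575 in the other epithelial cells. Slc26a3, the chloride and bicarbonate exchanger of colonocytes, was at 92.5 and 45.2 CPM, and Gsdmc4 at 122 and 35.9 CPM. Cells with at least 0.5% of UMIs in Car1 numbered 37 of 160 and 24 of 173. Without them and without the cells with at least 0.05% Jchain UMIs, Slc26a3 was at 13.4 and 7.99 CPM and Gsdmc4 at 30.3 and 20.3 CPM. The same removal left Muc2 at 16465 and 37432 CPM, Spink4 at 50842 and 9276, Fcgbp at 1426 and 75.3, and Ccn3 at 53.5 and 611.

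By mucus share, 96 cells lay between 2 and 5%, 162 between 5 and 10% and 75 at 10% or more. The median UMIs per cell were 48336, 26002 and 25368 in that order. The surface list summed to 16182, 7763 and 6524 CPM and the cell cycle list to 3022, 1598 and 1045 CPM. The glycosylation list was highest in the middle group at 6102 CPM, against 3879 below and 5395 above. Cells high in Car1 numbered 40, 20 and 1. The balanced sides were 45 and 51 cells in the lowest group, 50 and 112 in the middle and 65 and 10 in the highest. The deeper cells at the low end thus held more surface and cell cycle RNA, and the part of doublets or free RNA in this was not tested.

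**Figure D4:**
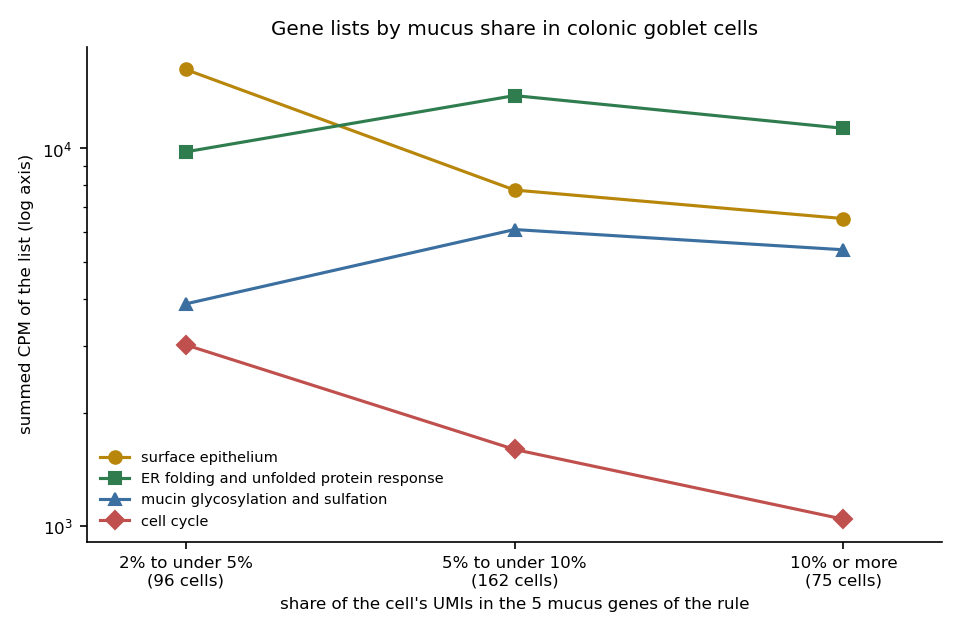
Points give the summed CPM of 4 gene lists on a log axis in the colonic goblet cells with 2 to under 5%, 5 to under 10% and 10% or more of their UMIs in the 5 mucus genes (96, 162 and 75 cells). The cell cycle list goes from 3022 to 1045 CPM and the surface list from 16182 to 6524 CPM, and lines only join the points of a list.

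Along the 5 bins of the pair-balanced score, from the Plet1 and Nxpe2 end, Muc2 was at 38493, 33809, 20702, 18460 and 12296 CPM. Spink4 was at 6409, 9968, 15174, 27076 and 44665 CPM. Spdef was at 751, 697, 513, 311 and 197 CPM, and Tff3 at 106, 572, 1534, 3073 and 3933 CPM. The fourth bin holds 16 cells. These 4 genes kept 1 direction along the score, with or without the fourth bin.

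Goblet cells of the rectum, taken by the same rule, were the nearest comparison. They had a median of 23542 UMIs, 30 of the 215 cells had under 1000 UMIs and 26 had at least 0.05% Jchain UMIs. Of 10374 genes 11.3% were past 2-fold, 7.74% higher in colon and 3.58% higher in rectum. The rectal cells had 7517 CPM of Muc2, and colonic cells 3.17-fold more. Of 8 core mucus genes 5 were past 2-fold higher in rectum, among them Zg16 (12976 CPM, per-cell median 697), Tff3 (8290, median 2665), Fcgbp (3010) and Clca1 (5010). The rule sums Muc2, Zg16 and Tff3, so these differences are not independent of how the cells were chosen.

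The state markers differed between these libraries. In rectum Plet1 was at 7.28 CPM with a UMI in 11 of the 215 cells, and colon stood 109-fold higher. Nxpe2 was at 192 and 19.6 CPM, Retnlb at 19944 and 5510 CPM and Reg4 at 6578 and 4500 CPM. The median cell went the other way for Reg4, at 46.9 CPM in colon and 3751 in rectum. A Reg4 UMI was present in 62.8% of colonic and 76.3% of rectal goblet cells. By the same pair-balanced score, with the colonic sums as divisors, 188 rectal cells lay on the Retnlb and Reg4 side, 5 on the other, and 22 held none of the 4 genes. The ileum had 190, 2 and 70 cells, the duodenum 48, 0 and 2, and the jejunum 26, 0 and 5. The colonic sums set this cut. By plain majority 7 colonic cells and 1 rectal cell lay on the Plet1 and Nxpe2 side, and 0 in the other libraries.

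Other products were higher in rectum. Mptx1 was at 20433 CPM in rectum and 337 in colon, and Sval1 at 5301 and 6.99 CPM. Sval1 had a UMI in 98.6% of rectal and 7.81% of colonic goblet cells. Best2 was at 306 and 20.3 CPM and Ang4, an antimicrobial ribonuclease, at 269 and 27.6 CPM. Spink1, a trypsin inhibitor, was at 2825 and 19.9 CPM. Hoxb13, a homeobox gene of the hindmost gut, reached 350.2 CPM in rectum, while colonic goblet cells held 0 UMIs of it, at least 1235-fold less. Each of these 6 genes was past 2-fold higher in rectum.

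Higher in colon were Car1 (4190 and 30.9 CPM) and Osr2 (104 and 0 CPM, at least 152-fold), a zinc finger gene. Ccn3 was near equal at 289 and 344 CPM. Colonic goblet cells had 84.9 CPM of B3gnt6 against 1.59 in rectum, and 43.5 against 299.7 CPM of B3gnt7. Of 31 glycosylation genes 8 were past 2-fold higher in colon and 4 in rectum, against 7.74% and 3.58% of all genes. None of 34 protein folding genes and none of the cell cycle list was past 2-fold, against 11.3% of all genes. Of 17 genes for ion and water transport 12 were past 2-fold higher in colon, among them Car1, Slc26a3 and Aqp8, which are known from colonocytes. The list summed to 5817 CPM in colonic goblet cells, 1325 in rectal ones and 23086 in the other colonic epithelial cells. Without the colonic cells high in Car1 or Jchain it was at 2397 and 1770 CPM on the sides. The part of free RNA or doublets in this was not tested.

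**Figure D5:**
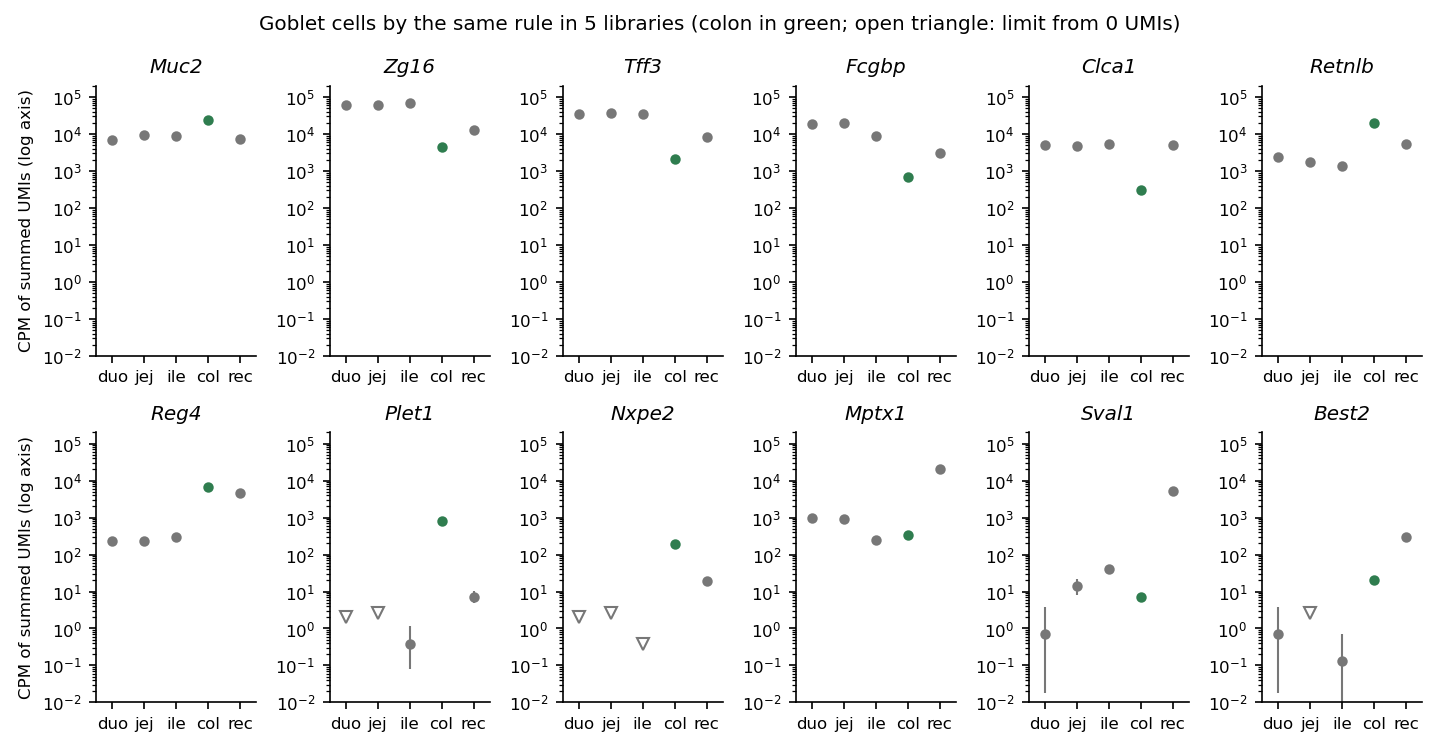
Points give the CPM of summed UMIs in goblet cells by the same rule in the 5 libraries on a log axis (duodenum 50 cells, jejunum 31, ileum 262, colon 333 in green, rectum 215), vertical lines are exact Poisson intervals, and open triangles give the limit of 3 counts where a gene had no UMI. In these sums Muc2, Retnlb, Reg4, Plet1 and Nxpe2 are highest in the colon, and Zg16, Tff3, Fcgbp and Clca1 lowest. The median cell held more Reg4 in rectum than in colon.

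Against the ileum 19.2% of 10577 genes were past 2-fold, 15.3% higher in colon and 3.85% higher in ileum, with a median log2 fold of 0.35. With TMM scaling the median was 0.03 and 1652 genes were past 2-fold, 1059 higher in colon and 593 in ileum, in place of 1620 and 407. The ileal cells by this rule held Paneth cell products, with Defa24 at 32149 CPM and Lyz1 at 3744 CPM, both without a UMI in colonic goblet cells. Their per-cell medians in ileum were 132 and 48 CPM and the highest cells 333458 and 62740.5, so a minority of cells held most of these products. In duodenal goblet cells Defa24 was at 32371 CPM in sum, with a median of 63 and a highest cell of 307710. Whether Paneth cells passed the rule, and the share that is free RNA, was not tested.

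Muc2 was at 9108 CPM in ileum and 23848 in colon, while Zg16 was at 67586 and 4351, Tff3 at 34490 and 2075, Fcgbp at 8664 and 701, and Clca1 at 5272 and 312 CPM. Zg16 was 15.5-fold and Tff3 16.6-fold lower in colon. In duodenum and jejunum Zg16 was at 62743 and 61878 CPM, Fcgbp at 19019 and 19985 CPM and Muc2 at 7112 and 9630.0 CPM. Retnlb was at 1339 CPM in ileum, 2362 in duodenum and 1712 in jejunum, and Reg4 at 301, 237 and 230.1 CPM. For Reg4 the rectum and colon, and for Retnlb the colon, then the rectum, stood above all 3 parts of the small intestine, beyond counting error.

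Plet1 had 3 cells with a UMI among 262 ileal goblet cells (0.391 CPM) and none among 50 duodenal and 31 jejunal cells, where exact Poisson intervals allow up to 2.55 and 3.17 CPM. Nxpe2 and Ccn3 had no UMI in any of the 3. The glycosylation list had 10 of 31 genes past 2-fold higher in colon than ileum and 0 lower. The shares of all genes were 15.3% higher in colon and 3.85% higher in ileum. B3gnt6 was at 0.391 CPM in ileum, B3galt5 at 2.09, St6galnac6 at 0.261 and Cmah at 0.261 CPM, against 84.9, 259, 316 and 223 CPM in colon. Of 14 interferon response genes 9 were past 2-fold higher in ileum and 0 in colon. Isg15 was at 234 CPM in ileum and 4.44 in colon, and Oasl2 at 114 and 5.67 CPM. Of 17 transport genes 15 were past 2-fold higher in colon. That list summed to 368 CPM in ileum and 5817 in colon. Without the colonic cells high in Car1 or Jchain it was at 2397 and 1770 CPM on the sides. The part of free RNA or doublets was not tested here either.

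Against duodenum with jejunum, 18.5% of 10180 genes were past 2-fold, 14.1% higher in colon and 4.41% lower. With TMM scaling 1114 genes were higher in colon and 580 lower, in place of 1432 and 449. Of 31 glycosylation genes 9 were past 2-fold higher in colon and 2 lower, and interferon genes again were higher in the small intestine for 9 of 14. The colonic cells serve in each of these comparisons, so their counts are not independent of each other.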

How the data were processed

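The deposited files hold whole-number UMI counts per gene and barcode for 32285 genes, made by the authors with Cell Ranger. The matrix headers, per the file headers, name version 7.2.0, while the submitters' processing notes name version 4.0.0, Seurat and mm10. The barcodes had already been filtered, and doublet removal is not given in the sources used here. Reads were 150-bp pairs, and the sort used 5 µg/ml propidium iodide.

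Members, gene lists and the states were chosen with earlier results of these data known. UMIs were summed over cells (Python 3.11.15, numpy 2.4.6, scipy 1.17.1, pandas 2.3.3) and given as CPM. A gene entered a comparison with at least 50 UMIs over both groups, was past the limit at 2-fold, and a group at 0 was set to 3 counts. A gene with few UMIs in 1 group thus entered only through its UMIs in the other. Other epithelial cells passed the same limits without the mucus share. Immune cells had at least 2 Ptprc UMIs and none of Epcam, Krt8 and Krt18. Doublets were scored with Scrublet in scanpy 1.11.5, and a set share of barcodes with the highest scores, 0.8% per 1000 barcodes, was marked. In the colon this marked 39 of 2199 cells, while the threshold of Scrublet itself marked 1. TMM factors came from edgeR 4.0.16. The fold calculation was run on simulated counts, drawn for all cells of a group from a shared mean profile with known folds in some genes. These counts hold no cell states, doublets or free RNA, so they do not show how single barcodes affect a fold.

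Genes named were list members, or by size: the 12 largest folds in each direction between the sides, 15 higher and 10 lower against other epithelial cells, and 10 in each direction against each other segment, leaving out the genes that fixed the groups (those of the states between the sides, those of the rule elsewhere) and mitochondrial, ribosomal, immunoglobulin and unnamed genes. 1 of the genes so named is not reported here. Hsd11b2 and Cd177 were named after their values were seen. Spatial libraries of the series were not analysed here.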

Additional observations from a re-analysis of the deposited data

How the results depend on the processing

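Cells from 1 library per segment set the limit here, and counting intervals do not cover differences between animals. Depth limited the gene counts. With each cell thinned to 2000 UMIs, genes past 2-fold numbered 95 between the pair-balanced sides, 320 between the sides by plain majority, 1065 against other epithelial cells, 306 against rectum, 449 against ileum and 494 against duodenum with jejunum, in place of 445, 1687, 2018, 1174, 2027 and 1881, with fewer genes tested. With a 4-fold limit they numbered 65, 230, 613, 429, 742 and 735. With at least 200 UMIs a gene they numbered 197 between the pair-balanced sides, 711 by majority, 545 against rectum, 1140 against ileum and 952 against duodenum with jejunum. As a mean of cell fractions they were 915 between the pair-balanced sides and 1947 against rectum. The count by majority was 2946 with at least 5% mucus UMIs, 6331 with shares of at least 0.8 or at most 0.2, which left 1 cell on the smaller side, and 445 with the pairs balanced.

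The goblet share of the colonic epithelial cells, 29.2%, was 47.9% with at most 10% mitochondrial UMIs, 21.8% over every deposited barcode, 20.8% with at least 5% and 32.5% with at least 1% mucus UMIs, and 43.7% without the cells high in Car1. The share on the Retnlb and Reg4 side by majority, 97.3%, was 99.6% with the stricter shares and 48.0% with the pairs balanced. The pair-balanced share of 48.0% was 54.3% after thinning and 59.3% with the stricter shares. At least 1000 genes, no Ptprc UMI, doublets removed and the cells high in Jchain left out moved none of these shares beyond their interval and no total count by over 1.5 times, but without the cells high in Jchain the count by majority split into 858 and 990 genes in place of 1203 and 484.

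Of the genes named with a fold past 2, 40 of 55 between the sides, 20 of 25 against other epithelial cells, and all against rectum (19), ileum (18) and duodenum with jejunum (7) kept direction and limit in every setting that could be run for them. The 40 include Fabp6, Ly6c2, Cd52 and Meg3, whose UMIs lay mostly in 1 barcode each. Signs turned for Jchain, with a log2 fold of 0.58 with at least 5% mucus UMIs and 0.17 without the cells high in Jchain in place of -4.84, and for Jag1 (-0.53 as a mean of cell fractions). Clca1 was at 0.99 with at most 10% mitochondrial UMIs in place of 2.52, and Slc26a3 at 0.23 and Gsdmc4 at 0.42 with at least 1% mucus UMIs in place of 1.03 and 1.77. The cause was not tested. No paired analysis was possible because each segment has 1 library and the results come from no test.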

Other observations

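Antimicrobial genes differed between the sides in both directions. Of 11 antimicrobial genes 4 were past 2-fold higher on the Retnlb and Reg4 side, 1 of them Zg16, a gene of the rule. On the Plet1 and Nxpe2 side 2 were. The shares of all genes were 1.95% and 2.62%. Itln1, the lectin intelectin, was at 46.4 and 13.7 CPM, in 63 and 29 cells. Duox2, an oxidase that makes hydrogen peroxide, was at 21.5 and 78.4 CPM and was with its maturation factor Duoxa2 on the side of Plet1. Reg3g, an antibacterial lectin, was at 61.9 and 29.6 CPM, but 1 cell held 41.0% of its UMIs, and without that cell it was at 26.3 CPM on the first side. Against the other colonic epithelial cells 6 of 11 were past 2-fold higher in goblet cells and 2 lower, against 9.04% and 8.3% of all genes.

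Membrane mucins, which stay on the cell surface, were not past 2-fold between the sides for any of 4 tested. With 4.57% of all genes past it, a count of 0 among so few lies near the background. Muc13 was at 636 and 639 CPM. In goblet cells Muc4 was at 66.1 CPM against 32.1 in the other epithelial cells, and Muc3 at 93.0 against 502 CPM. The Muc4 fold was below the limit in 4 of 12 alternative settings. Ano1, a calcium-activated chloride channel, was at 21.5 CPM on the Retnlb and Reg4 side and 53.4 on the other, the reverse of Best2. None of 12 crypt base genes was past 2-fold between the sides, against 4.57% of all genes, so this count lies near the background. Lgr5 was at 8.001 and 4.64 CPM and Sox9 at 173 and 215 CPM.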
